A study of Equus caballus with 32 samples.

Results

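Transcripts of platelets and megakaryocytes were measured in venous blood, unseparated, from 32 mares of the Welsh Pony breed, sampled 30 days after their foals were weaned. Progressive weaning had been used for 16 mares and brutal weaning for the other 16, and the labels describe neither procedure further. Blood was drawn into tubes whose reagent stabilises RNA, and each mare gave 1 single-colour Agilent array. The 10 genes followed here are PF4, F13A1, TREML1, GNG11, PROS1, ITGA2B, ITGB3, GP9, TUBB1 and GP1BA. Their probes were found by the gene name written in the scanner files, which gave 22 of the 43987 probes and 9 of the 10 genes, among 15072 gene symbols on the array. No probe carried the name TUBB1. A set of 5 probes for 1 Ensembl transcript on chromosome 22 was described there as the beta 1 class VI tubulin, and these are given beside the others as TUBB1 by description, outside the counts.

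Platelets are cell fragments shed into the blood by megakaryocytes of the bone marrow. They have no nucleus, and carry transcripts packed into them by the megakaryocyte. On injury they bind the vessel wall through the glycoprotein Ib-IX complex, bind fibrinogen through the integrin made of ITGA2B and ITGB3, and release granules rich in chemokines and clotting proteins. In whole blood, fewer platelets and less RNA per platelet cannot be told apart.

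The probes show what was measured for each gene, and some genes rest on a single stretch of sequence. The 5 PF4 probes overlap, as do the 5 of ITGB3 and the 5 of TUBB1 by description, so that each of these genes was in effect measured at 1 place. Of these genes the probes below are shown with the bases shared by all probes of the gene in capitals, and the probes of F13A1, TREML1, ITGA2B and GP1BA stand in lower case throughout. All are 60 bases long and written 5′ to 3′ as in the scanner files.
PF4, brightest probe: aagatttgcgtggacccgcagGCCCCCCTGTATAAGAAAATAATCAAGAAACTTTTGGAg
PF4, probe farthest downstream: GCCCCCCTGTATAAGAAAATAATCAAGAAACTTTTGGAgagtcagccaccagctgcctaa
F13A1, probe across an exon junction: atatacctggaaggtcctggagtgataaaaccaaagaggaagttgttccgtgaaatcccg
TREML1: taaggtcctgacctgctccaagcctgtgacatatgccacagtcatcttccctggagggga
ITGA2B: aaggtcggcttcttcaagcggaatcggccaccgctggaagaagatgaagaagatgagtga
ITGB3, most downstream probe: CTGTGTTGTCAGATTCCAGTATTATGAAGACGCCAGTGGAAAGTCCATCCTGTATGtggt
GP1BA: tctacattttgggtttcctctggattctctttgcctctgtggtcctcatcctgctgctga
TUBB1 by description, brightest probe: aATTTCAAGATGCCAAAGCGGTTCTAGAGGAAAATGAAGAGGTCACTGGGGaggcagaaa
The PF4 probes share 38 bases, those of ITGB3 56 and those of TUBB1 by description 50.

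The file headers name the horse build EquCab1 for the probe positions, which was not checked against a genome here. On it the brightest PF4 probe lies at chr3:37519843-37519902 on the plus strand, that of TREML1 at chr20:33990354-33990413 on the minus strand, and that of PROS1 at chr19:56087602-56087661 on the plus strand. The brightest GNG11 probe lies at chr4:37060443-37060502 on the plus strand and the GP9 probe at chr16:1661540-1661599 on the minus strand. F13A1 was read at 3 places, 2 of them at chr20:6082004-6082063 and chr20:6082086-6082145 on the minus strand. The third F13A1 probe spans an interval of 5964 bases and the ITGA2B probe one of 835 bases at chr11:17967155-17967989, so both cross introns. ITGA2B, ITGB3 and GP1BA all stand on chromosome 11. The RefSeq table of a newer horse assembly places the 10 genes on the same chromosomes, and holds the PF4 accession under the symbol LOC100630489.

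Each value is the log2 of a probe's signal over the 75th percentile of its own array, a level written as 0, and values are not compared between genes. That percentile ran from 339.5 to 646 intensity units over the arrays, and each array had 53.0 to 66.0% of its spots well above background. The arrays lie on 4 slides, each with 4 progressive and 4 brutal mares. PF4, F13A1, GNG11, ITGA2B, GP9, GP1BA and TUBB1 by description stood well above background on all 32 arrays, and TREML1 and PROS1 on 31. Some of these genes had probes printed more than once on an array. From these the SD of a single spot was 0.043 to 0.15, and the SD between mares was 4.47 to 17.5 times as large. ITGB3, the beta chain of the fibrinogen receptor, was not well above background. Its 5 probes reached that mark on at most 3 arrays of progressive mares and 1 of brutal mares, and it was not tested.

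The question put to the arrays was whether mares weaned in either way differ in blood expression after 30 days. All 8 measured genes had a lower mean after progressive than after brutal weaning, but limma called 0 of the 8 at an adjusted p under 0.05, with 0% called among all 9394 genes tested. The adjusted p of each was 0.997. At an unadjusted p under 0.05 there were 5 of the 8 (PF4, F13A1, TREML1, GNG11 and PROS1), all lower, against 1.87% of all genes lower and 2.61% in either direction. The median difference, progressive minus brutal, was -0.43 on the log2 scale for the 8 genes and -0.020 for all genes, of which 58.3% were lower. Probe by probe, limma called 0 of the 17 tested, and 14 were lower at an unadjusted p under 0.05, against 1.88% of all probes. These are all the probes of the same 5 genes. Those of PF4 overlap and are not separate measurements, and 1 of F13A1 was tested only through the brutal mares, so the count of probes adds nothing to that of the genes. The genes were picked with such results in view, so these counts describe them and support nothing further.

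Among the granule and clotting proteins, PROS1 encodes protein S, a cofactor of activated protein C in stopping clotting, which platelets store and which liver and vessel wall cells also make. Its log2 signal ran from -4.57 to -2.44 with a median of -3.09 in progressive mares, and from -3.32 to -1.77 with a median of -2.55 in brutal mares. The groups overlapped, with 6 progressive mares below every brutal mare and 6 brutal mares above every progressive mare. The means were -3.27 ± 0.58 and -2.57 ± 0.44 (SD, n = 16 each) in progressive and brutal mares. The difference was -0.71 (SE 0.17, unadjusted p = 0.00029, adjusted p = 0.997 in limma), a progressive to brutal ratio of 0.613 with a 95% interval of 0.480 to 0.784. A progressive mare lay below a brutal mare in 82.8% of all pairs, the highest share among the measured genes. PROS1 was dim, and with normexp background correction its difference was -0.38 (SE 0.096, unadjusted p = 0.000334).

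F13A1 encodes the A chain of clotting factor XIII, which cross-links fibrin and is also made by monocytes and macrophages. It ran from -3.37 to 0.031 with a median of -1.42 in progressive mares, and from -1.88 to 0.41 with a median of -0.53 in brutal mares. The 4 lowest mares were all progressive, and 3 brutal mares lay above the highest progressive one. The difference was -0.77 (SE 0.28, unadjusted p = 0.00963), a ratio of 0.585 with an interval of 0.393 to 0.870. F13A1 spread most widely among the measured genes. Its highest mare was 13.7 times its lowest, and its SD over all mares exceeded that of 98.4% of tested genes. The 2 neighbouring probes gave -0.77 and -0.72. The probe across the exon junction was well above background on 6 progressive and 13 brutal arrays, and no difference is given for it.

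PF4, platelet factor 4, is a chemokine that platelets release and that binds heparin. It ran from -1.33 to 0.17 with a median of -0.58 in progressive mares, and from -1.102 to 0.49 with a median of -0.19 in brutal mares. The groups overlapped over most of their range, with 3 mares of each group beyond the other. The means were -0.61 ± 0.46 and -0.25 ± 0.46 (SD, n = 16 each) in progressive and brutal mares, and the difference was -0.37 (SE 0.16, unadjusted p = 0.0259), a ratio of 0.775. The 5 overlapping PF4 probes printed in part above gave -0.41 to -0.32, and their correlations over mares were 0.972 to 0.994.

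Among the surface receptors, TREML1 encodes a receptor stored in platelet granules and brought to the surface on activation. It ran from -4.25 to -1.61 with a median of -3.20 in progressive mares, and from -3.55 to -1.20 with a median of -2.66 in brutal mares. The difference was -0.49 (SE 0.23, unadjusted p = 0.0399), and -0.31 with normexp background correction. ITGA2B, the alpha chain of the fibrinogen receptor, ran from -1.58 to 0.81 with a median of -1.01 in progressive mares, and from -1.88 to 1.101 with a median of -0.61 in brutal mares. No progressive mare lay below the lowest brutal mare, and the difference was -0.40 (SE 0.23, unadjusted p = 0.0928), with an interval of -0.88 to 0.071.

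GP9 and GP1BA encode chains of the receptor through which platelets bind von Willebrand factor. GP9 ran from -1.61 to 0.73 with a median of -0.54 in progressive mares, and from -1.89 to 1.56 with a median of -0.22 in brutal mares. Both its lowest and its highest mare were brutal, and the difference was -0.34 (SE 0.23, unadjusted p = 0.138). GP1BA ran from -3.82 to -2.17 with a median of -2.68 in progressive mares, and from -3.18 to -1.999 with a median of -2.72 in brutal mares. In pairs of 1 mare from each group the progressive mare was lower as often as it was higher, and the difference was -0.047 (SE 0.12, unadjusted p = 0.703), with an interval of -0.29 to 0.20. The 2 chains of this receptor also correlated weakly over mares, as given below.

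Inside the platelet, GNG11 encodes a gamma subunit of heterotrimeric G proteins and TUBB1 the beta tubulin of the ring of microtubules that keeps platelets disc-shaped. GNG11 ran from 3.27 to 5.02 with a median of 4.28 in progressive mares, and from 3.93 to 5.28 with a median of 4.75 in brutal mares. The 6 lowest mares were all progressive. The difference was -0.45 (SE 0.15, unadjusted p = 0.00525), a ratio of 0.730 with an interval of 0.590 to 0.905. TUBB1 by description ran from -2.06 to 0.53 with a median of -0.68 in progressive mares, and from -1.21 to 0.84 with a median of -0.25 in brutal mares. The 5 lowest mares were progressive, and the difference was -0.64 (SE 0.24, unadjusted p = 0.0104, adjusted p = 0.997), a ratio of 0.641.

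The probes of GNG11 did not vary alike. The first 3 gave differences of -0.45 to -0.41, and the fourth, which lies farthest upstream at chr4:37060401-37060460, gave -0.65 (SE 0.24). The signal of this probe minus that of the probe it shares 40 bases with was -1.98 to -1.73 in 26 mares. It was -3.14 in the mare progressive 15, -2.98 in progressive 8, -2.47 in progressive 12, -2.45 in progressive 9, -2.39 in progressive 10 and -2.21 in brutal 3. The SD of a single spot of this probe, from its 2 spots per array, was 0.043, and they differed by at most 0.17. The value given for GNG11 is that of its brightest probe, which followed the overlapping neighbour at r = 0.994 over mares, and with the mean of the 4 probes the difference was -0.49. On the brightest probe progressive 15, 8, 12, 9 and 10 stood at 3.272, 3.602, 3.933, 3.805 and 3.617, all among its 6 lowest mares. Brutal 3 stood there at 4.899. The cause of the gap was not tested.

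**Figure D1:**
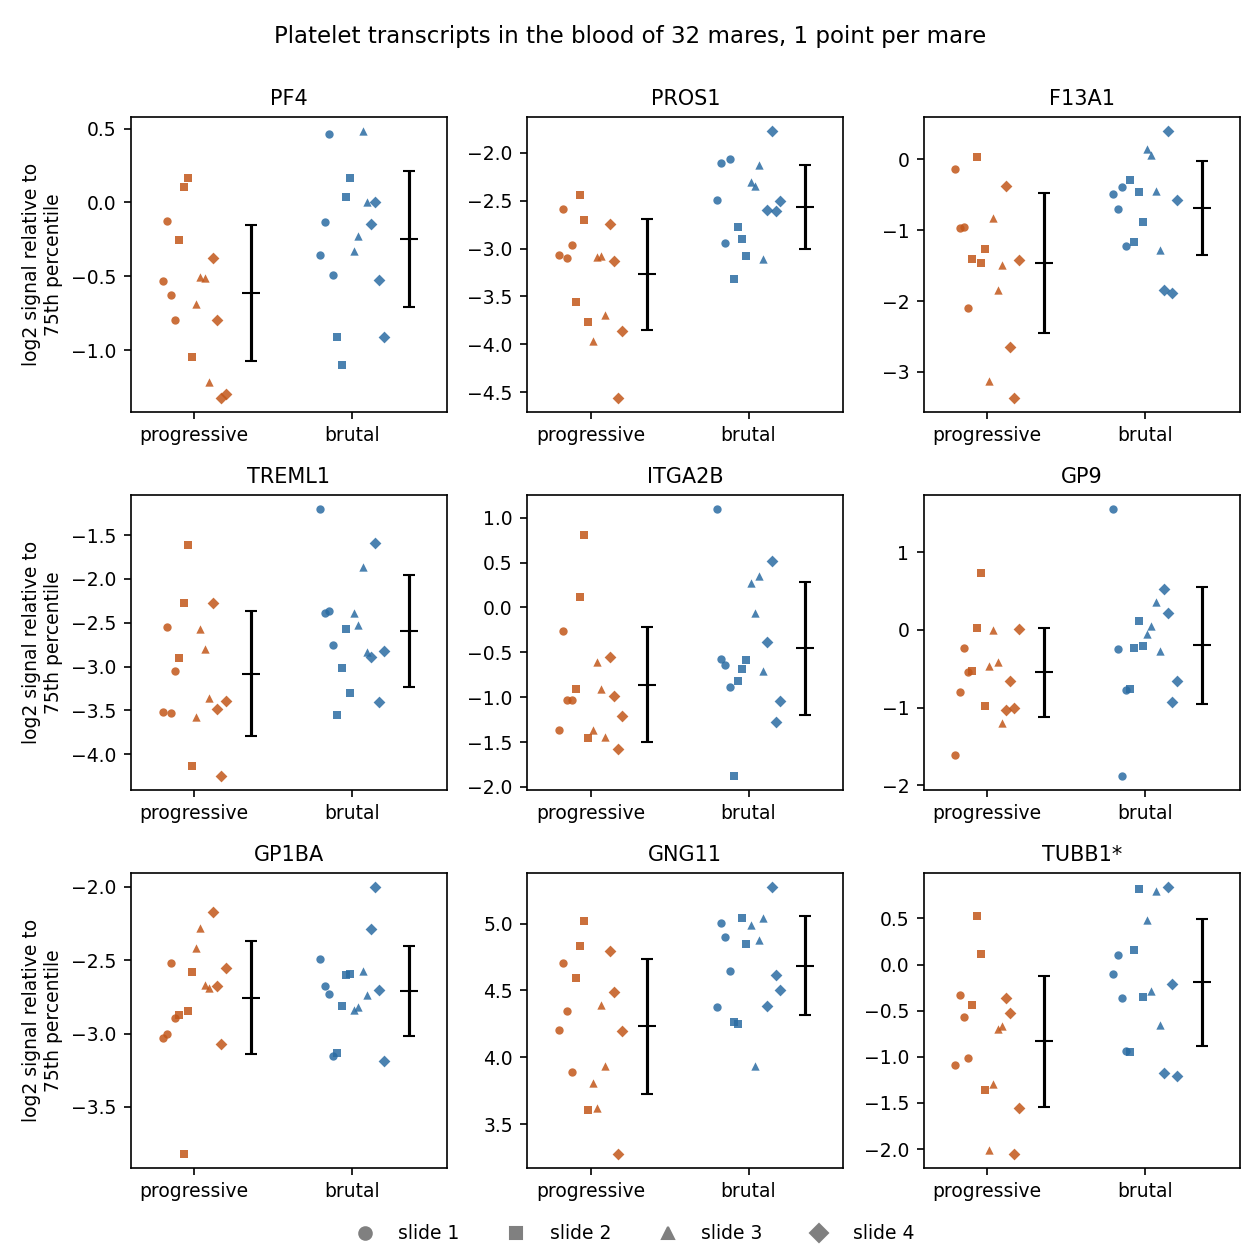
Log2 signal relative to the array's 75th percentile (y axis) of each gene in each mare, progressive mares left and brutal mares right, with marker shape for the slide and black bars for mean ± SD (n = 16 each). TUBB1* is TUBB1 by description. The groups overlap in every gene, and the lowest mares of PROS1, GNG11 and F13A1 are progressive, 6, 6 and 4 of them.

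The same mares were at the ends of several genes. The mare progressive 15 was the lowest in PF4, F13A1, TREML1, GNG11, PROS1 and TUBB1 by description, and was among the 8 lowest mares in all 8 measured genes. The mare brutal 14 was the highest in F13A1, GNG11, PROS1, GP1BA and TUBB1 by description, and was among the 8 highest in all 8. Over the 8 genes, the mean of z values (each gene scaled to mean 0 and SD 1 over the 32 mares) ran from -1.83 to 0.92 in progressive mares, with a median of -0.39, and from -0.70 to 1.55 in brutal mares, with a median of 0.32. Without progressive 15 the median difference of the 8 genes was -0.37, and without brutal 14 it was -0.38. The unadjusted limma p of TREML1 was then 0.075 and 0.0719, and that of PF4 0.0483 and 0.0376. F13A1, GNG11 and PROS1 stayed under 0.05 in both fits. These mares were chosen for that after seeing the data.

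Every slide held both groups, so the difference can be read within a slide. PROS1, F13A1, GNG11 and TUBB1 by description had a lower mean in progressive mares on 4 of 4 slides, and PF4, TREML1, ITGA2B, GP9 and GP1BA on 3 of 4. PROS1 differed by -0.53, -0.10, -0.98 and -1.21 on slides 1 to 4. On slide 4 all 4 progressive mares lay below all 4 brutal mares. On slide 2 the sign was the other way for 4 genes. There ITGA2B differed by 0.63 (95% interval -0.46 to 1.72), TREML1 by 0.38, PF4 by 0.19 and GP9 by 0.081, and the median of the 8 genes was -0.0036. On slides 1, 3 and 4 that median was -0.45, -0.74 and -0.55. Each slide was also left out in turn. Without slide 2 ITGA2B differed by -0.75 (SE 0.22, unadjusted p = 0.00245, adjusted p = 0.956 in limma), TREML1 by -0.78 and GP1BA by 0.020. ITGA2B and TREML1 had the other sign on slide 2, so leaving it out was bound to enlarge their differences. The unadjusted limma p of ITGA2B was 0.257 without slide 1, 0.503 without slide 3 and 0.207 without slide 4. Without slide 3 ITGA2B differed by -0.19, PF4 by -0.25 and F13A1 by -0.55. Of the 8 genes, 5 had an unadjusted p under 0.05 on all slides and 6 without slide 2. There were 3 without slide 1, 3 without slide 4 and 1, PROS1 (p = 0.00728), without slide 3. Over all 9394 genes, 245 had such a p in either direction on all slides and 281 without slide 2. Of all genes there were 307 without slide 1, 142 without slide 4 and 147 without slide 3. Whether the slides differed from each other was not tested, and a fit with slide as a block left 0 of the 8 genes called.

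**Figure D2:**
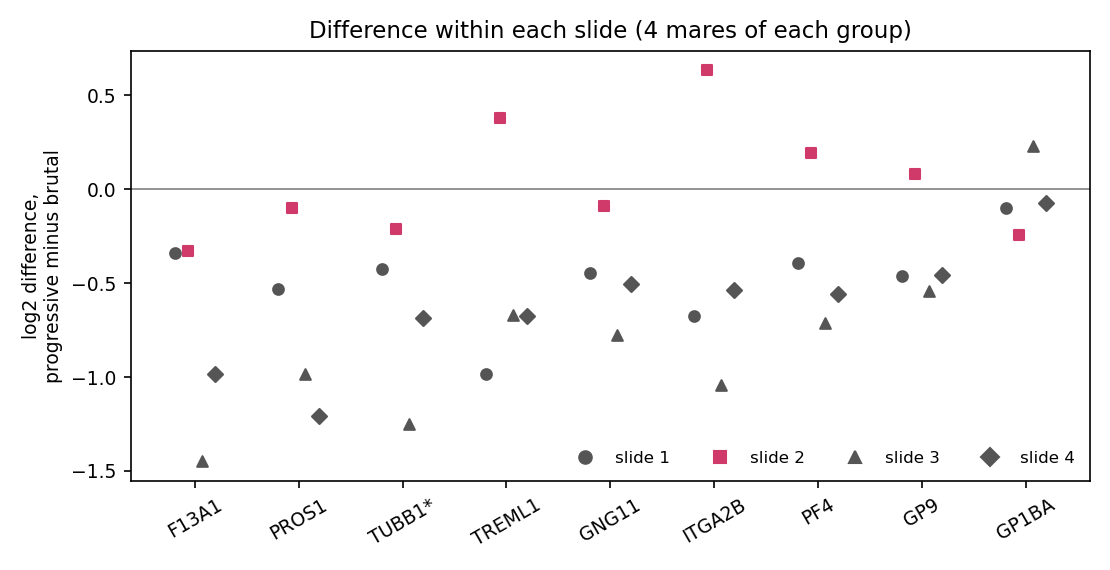
Log2 difference, progressive minus brutal (y axis), of each gene (x axis) within each slide, from 4 progressive and 4 brutal mares, with TUBB1* for TUBB1 by description. Slide 2 (squares) lies above 0 for PF4, TREML1, ITGA2B and GP9, and slide 3 (triangles) lies above 0 for GP1BA.

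Among markers of other blood cells, the neutrophil and erythroid lists were mostly lower in mean after progressive weaning. The median difference of the monocyte, T cell and B cell lists lay within 0.045 of 0. Over all genes 58.3% were lower, with a median difference of -0.020. Neutrophil markers were lower after progressive weaning in 10 of 10 genes (median difference -0.31), and their mean z value ran from -1.56 to 1.06 in progressive and from -1.13 to 0.83 in brutal mares. Erythroid markers were lower in 5 of 6 (median -0.57, mean z -1.08 to 1.31 in progressive and -0.93 to 1.93 in brutal mares), while SLC4A1, CA1 and EPB42 were not above the detection filter. Monocyte markers were lower in 6 of 9 (median -0.032, mean z -1.35 to 1.04 and -1.71 to 1.22 in progressive and brutal mares), T cell markers in 4 of 10 (median 0.0058, -1.71 to 1.02 and -1.76 to 1.17) and B cell markers in 1 of 6 (median 0.045, -1.47 to 1.68 and -1.80 to 1.35). Of the vessel wall markers only ROBO4 was measured, at -0.25 (SE 0.12, unadjusted p = 0.0389 in limma). Its probe was dim, well above background on 25 of the 32 arrays. CDH5, TEK, KDR, TIE1, EGFL7 and ERG were not above the detection filter. No marker of these lists passed after adjustment. At an unadjusted p under 0.05, all lower, were 2 neutrophil, 2 erythroid and 1 monocyte marker besides ROBO4, and 0 of the T cell and B cell markers, against 1.87% of all genes.

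With the neutrophil, T cell and erythroid mean z values in the model, PROS1 differed by -0.64 (95% interval -1.03 to -0.25, unadjusted p = 0.00204), against -0.71 without them. The other differences also lay closer to 0 than without these terms, that of GP1BA on its other side. F13A1 differed by -0.50, GNG11 by -0.26, TREML1 by -0.29, PF4, ITGA2B and GP9 by -0.18, -0.18 and -0.18, TUBB1 by description by -0.35 and GP1BA by 0.035, each with an interval that contains 0. A second model held the mean z value of the other measured genes. That mean is an imperfect measure of a shared level, so a remaining difference need not be particular to a gene. PROS1 then differed by -0.37 (interval -0.67 to -0.065, unadjusted p = 0.0187), F13A1 by -0.41 (interval -1.01 to 0.19) and GNG11 by -0.19 (interval -0.49 to 0.10). PF4, GP9 and GP1BA lay between -0.046 and -0.011, TUBB1 by description at -0.083, and TREML1 and ITGA2B at 0.19 and 0.29. No gene passed after adjustment in either model.

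**Figure D3:**
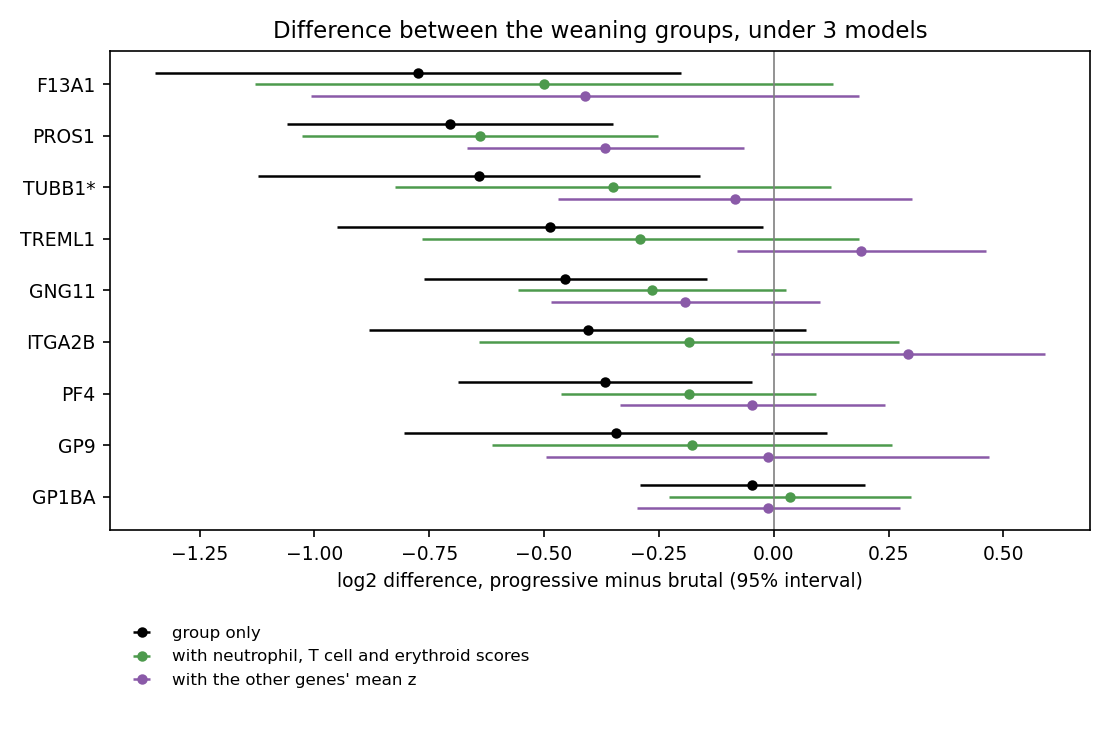
Log2 difference, progressive minus brutal, with its 95% interval (x axis) for each gene (rows, TUBB1* for TUBB1 by description) from limma with the group alone, with the mean z of neutrophil, T cell and erythroid markers, and with the mean z of the other measured genes. The interval of PROS1 lies below 0 in all 3 models, and those of GP1BA contain 0 in all 3.

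Over the 32 mares the genes moved together to unequal degrees. Of 36 pairs among the 8 genes and TUBB1 by description, 24 correlated at a Benjamini-Hochberg adjusted permutation p under 0.05. No share over pairs of other genes stands beside this count, or beside the counts of pairs and marker relations below. They therefore do not show whether these genes correlate more often than other genes do. The closest pair was TREML1 with ITGA2B, at Pearson r = 0.906 and Spearman rho = 0.907. Its permutation p of 1e-05 was the smallest that 100000 permutations can give, and adjusted it was 5.14e-05 for r and 7.2e-05 for rho. Without the 2 mares farthest from the TREML1 median r was 0.882, and it was 0.914 in progressive and 0.895 in brutal mares and at least 0.89 on each slide. GNG11 with TUBB1 by description reached r = 0.768 (rho = 0.736) and PF4 with GNG11 r = 0.736 (rho = 0.784), both with an adjusted permutation p of 5.14e-05 for r and 7.2e-05 for rho, and with r = 0.708 and 0.734 without the 2 farthest mares. For F13A1 the relation with GNG11 was r = 0.515 (rho = 0.405, adjusted p = 0.00398 for r), and r = 0.305 without the 2 mares farthest from its median.

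GP1BA did not follow. Its correlations with the other genes had a median of 0.053 and ran from -0.047 with F13A1 to 0.242 with GP9, its partner chain, where the adjusted permutation p was 0.244 for r and 0.0683 for rho. In progressive mares they ran from -0.41 to -0.047, and in brutal mares from 0.080 to 0.61. Whether the groups differ in this was not tested. GP9 stood between, with r = 0.723 to ITGA2B (rho = 0.673), 0.594 to TREML1 and 0.164 to F13A1. When slide and group means were taken out first, 22 of the 36 pairs passed. In progressive mares alone 19 passed and in brutal mares alone 2, with a median r over all pairs of 0.578 in progressive and 0.424 in brutal mares. On slides 1 to 4 alone, 8 mares each, 1, 4, 16 and 12 passed in exact permutation tests.

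**Figure D4:**
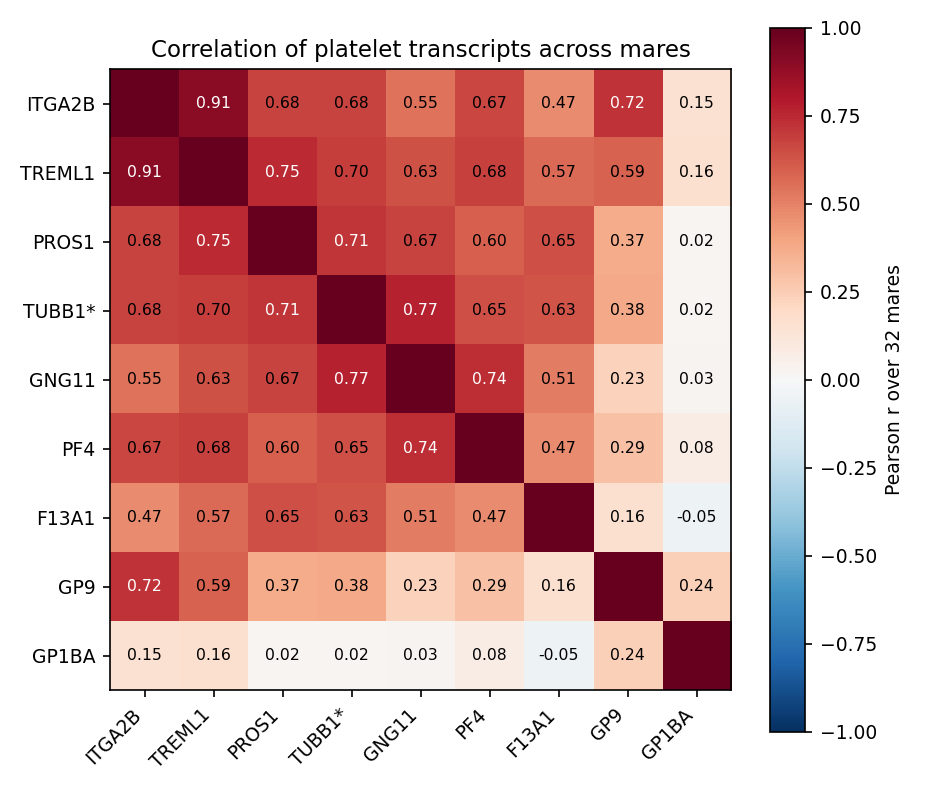
Pearson r over 32 mares for each pair of genes (rows and columns), with TUBB1* for TUBB1 by description. The highest value is 0.91 between ITGA2B and TREML1, and the row of GP1BA holds values from -0.05 to 0.24.

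Against the marker lists of other cells, 4 of 45 relations passed, and 3 when slide and group means were taken out first. PF4 correlated with the erythroid mean z at r = 0.680 (rho = 0.659, adjusted permutation p = 0.00112 for r and 0.00225 for rho), and at 0.656 within slides and groups. GNG11 did so at r = 0.643 (rho = 0.683, adjusted permutation p = 0.0009 for rho) and TUBB1 by description at r = 0.540 (rho = 0.568, adjusted permutation p = 0.019 for r), the last at 0.444 within slides and groups, where it no longer passed (adjusted permutation p = 0.099). TUBB1 by description also ran against the B cell mean z at r = -0.534 (rho = -0.554, adjusted permutation p = 0.019 for r), and at -0.620 within slides and groups. Without the 2 farthest mares these 4 values were 0.619, 0.629, 0.458 and -0.477. F13A1, which monocytes also make, had r = 0.269 with the monocyte mean z (rho = 0.256, adjusted permutation p = 0.257), and PROS1 r = 0.060 (rho = 0.029, adjusted permutation p = 0.787).

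Among 9231 other genes, those most like the mean z of the 8 genes over the mares were RAB11FIP5 (a partner of the recycling GTPase Rab11) at r = 0.885, PDZK1IP1 (a small membrane protein) at 0.836 and RSU1 (a binding partner of focal adhesion proteins) at 0.833. VWF (von Willebrand factor, made by megakaryocytes and vessel wall), SMOX (spermine oxidase) and MARCH2 (a membrane ubiquitin ligase) followed at 0.800, 0.789 and 0.787. They were picked as the highest of all, over the same arrays, and have no p. For single genes the closest was HIF1AN, a hydroxylase acting on hypoxia-inducible factor, to PF4 (0.783), AVIL, an actin-binding protein, to F13A1 (0.668), RAB11FIP5 to TREML1 (0.855) and PROS1 (0.749), the recycling GTPase RAB11A to GNG11 (0.794) and VWF to ITGA2B (0.882). CCDC74B was closest to GP9 (0.746), RSU1 to TUBB1 by description (0.866) and SLC52A3, a riboflavin transporter, to GP1BA (0.866). PDZK1IP1 averaged -3.62 ± 0.84 and -2.84 ± 0.82 (SD, n = 16 each) in progressive and brutal mares, a difference of -0.79 (SE 0.28, adjusted p = 0.997). RAB11FIP5 differed by -0.47 (SE 0.19) and SLC52A3 by -0.14 (SE 0.13).

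A longer list of 38 other platelet and megakaryocyte genes had 35 on the array and 16 above the detection filter. Of these 16, limma called 0, and 11 were lower and 5 higher after progressive weaning, against 58.3% lower among all genes, with a median difference of -0.091, against -0.020 over all genes. At an unadjusted p under 0.05 there were 2, both lower, against 1.87% of all genes. With slide as a block, without progressive 15 or without brutal 14 there were 0. Over all 9394 genes, 266, 155 and 154 had such a p in these fits, in either direction. With all mares and the group alone it was 245. VWF averaged -0.81 ± 0.77 and -0.25 ± 0.82 (SD, n = 16 each) in progressive and brutal mares, a difference of -0.56 (SE 0.27, unadjusted p = 0.044). CD9, a tetraspanin of the platelet surface, differed by -0.31 (SE 0.15, unadjusted p = 0.0466) and CLU, the secreted chaperone clusterin, by -0.68 (SE 0.43). On the other side F2R, a thrombin receptor, differed by 0.15 (SE 0.17), SPARC, a matrix protein of platelet granules, by 0.25 (SE 0.30) and RGS10, a regulator of G protein signalling, by 0.054 (SE 0.087). The chemokine PPBP and the receptors GP5 and GP6 were well above background on at most 2 arrays of either group, and the cyclooxygenase PTGS1 on at most 1 array of progressive mares and 0 of brutal mares.

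**Figure D5:**
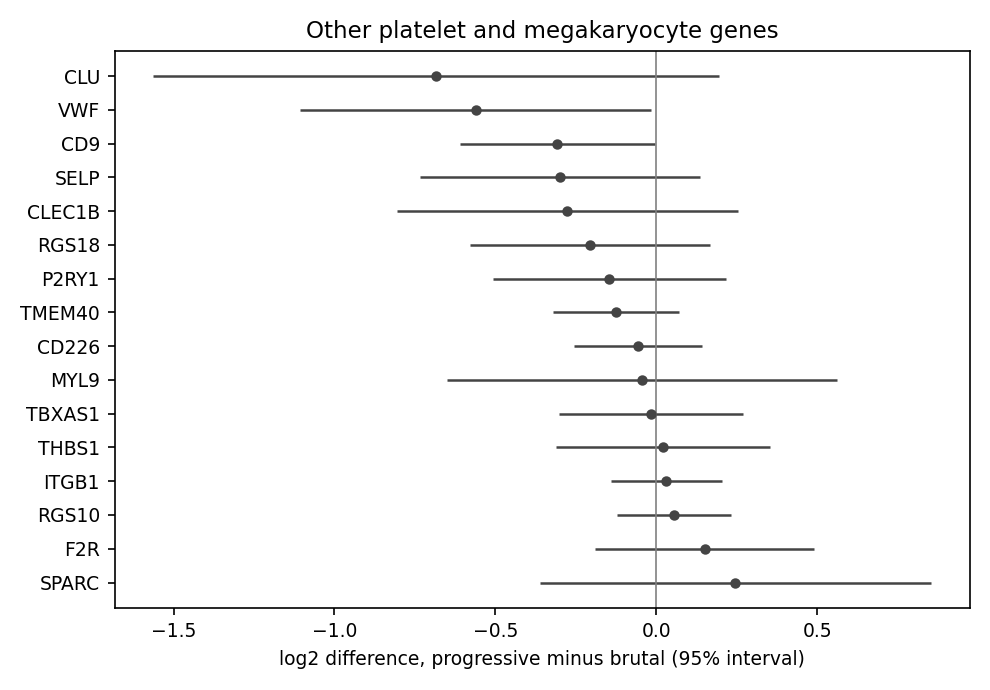
Log2 difference, progressive minus brutal, with its 95% interval (x axis) for the 16 measured genes of the longer platelet list (rows). The intervals of VWF and CD9 lie below 0, with their upper ends close to it, and the other 14 contain 0.

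In the pathways in which these genes work, limma also called 0 genes. The counts below stand against 58.3% lower among all genes, whose median difference was -0.020. At an unadjusted p under 0.05, 1.87% of all genes were lower. Megakaryocyte transcription factors were lower in 3 of 5, with NFE2 at -0.22 (SE 0.17) and GFI1B at -0.18 (SE 0.20). Signalling genes downstream of the integrin and the glycoprotein receptors were lower in 12 of 15 (median -0.070), with the integrin-linked kinase ILK at -0.16 (SE 0.072, unadjusted p = 0.0305) and the Fc receptor gamma chain FCER1G at -0.20 (SE 0.14). Clotting genes and partners of protein S were lower in 1 of 6 (median 0.071), with annexin ANXA5 at -0.10 (SE 0.12) and antithrombin SERPINC1 at 0.14 (SE 0.20). Alpha and beta tubulins and G protein gamma subunits were lower in 8 of 8 (median -0.14), with GNG2 at -0.25 (SE 0.12, unadjusted p = 0.043) and TUBB2B at -0.36 (SE 0.21). Leukocytes also express many genes of these lists, and the part of each cell type in them was not tested.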

How the data were processed

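Total RNA from whole blood was amplified to Cy3-labelled cRNA and hybridised to 1-colour Agilent arrays, per the labels' protocols. The authors' deposited scanner files hold background-subtracted intensity values per spot, made with Agilent Feature Extraction 10.10.1.1, per the file headers. The deposited series table, used as an alternative, holds log2 values of the same arrays. Which tool normalised that table is not named in the labels or files used here.

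Control and outlier spots were left out. Processed intensities were scaled to the 75th percentile of non-control spots on the same array, log2 transformed and averaged per probe. Testing took the 26368 of 43987 probes that were well above background on 8 or more of the 16 arrays in either group, and a gene was its brightest tested probe, which gave 9394 genes. Groups were compared by lmFit and eBayes of limma 3.58.1 (R 4.3.3) with no term but the group. The tests were two-sided, with Benjamini-Hochberg adjustment over all tested genes at 0.05. The fit was tested on simulated data. Correlations across mares used 100000 permutations in Python 3.11.15 with numpy 2.4.6 and scipy 1.17.1.

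The genes, lists and tests were chosen with earlier results of these data known. Named genes were every listed gene, the 3 other platelet genes with the smallest p in each direction, the 2 with the smallest p in each other pathway list, and the genes most alike in pattern. Alternatives were other scalings, background correction and filters, slide and array row, single slides, covariates, array weights, the probe summary and mares left out. The number of arrays limits the precision. 1 array per mare was deposited, and no label ties mares to each other, so p-values set a group difference against the spread between arrays. Differences between mares and those from preparing and hybridising each sample are not separated in that spread.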

Additional observations from a re-analysis of the deposited data

How the results depend on the processing

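No gene passed under any of the alternatives run, in the listed genes or in the other platelet genes. Of 223 single-gene differences under the alternatives, 52 came from fits that changed only the error, the filter or the threshold, so they could not move. Of the other 171, 161 kept their direction and 10 reversed. Among those kept, TREML1, PROS1, ITGA2B, GP9 and GP1BA could not move with the mean of tested probes, since each had 1 tested probe. On slide 2 alone PF4 differed by 0.19, TREML1 by 0.38, ITGA2B by 0.63 and GP9 by 0.081, and the median of the listed genes was -0.0036. GP1BA differed by 0.23 on slide 3 alone, by 0.020 without slide 2, by 0.035 with neutrophil, T cell and erythroid covariates and by 0.00084 without the mare brutal 14, which was left out after seeing the data, against -0.060 without progressive 16. With the mean of the other listed genes as a covariate TREML1 differed by 0.19 and ITGA2B by 0.29. The median of the listed genes lay between -0.74 and -0.030 under the other alternatives. Without the mare progressive 15, also chosen after seeing the data, it was -0.37. With no filter on dim probes ITGB3 differed by 0.37, with nearly every array at background. Without probes that were dim on any array TREML1 and PROS1 were not tested. The number of correlated pairs was 2 of 36 in brutal mares alone, 1 on slide 1 alone, 4 on slide 2 alone and 12 on slide 4 alone, against 19 in progressive mares alone and 16 on slide 3 alone, with the same numbers of mares. The cause was not tested. No paired analysis was possible because no number, animal or other label links mares of the 2 groups. The cause of the reversed values was not tested. The signals of ITGB3 and of the dim probe of F13A1 lay too near background to bound a difference.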
